A study of Mus musculus with 10 samples.

Results

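The genes described here encode enzymes of cholesterol and fatty acid synthesis and the regulators of the sterol regulatory element-binding proteins (SREBPs), measured in whole lung of mice with and without the tumour suppressor p53. The set is a list of 30 named genes, and all array probes carrying one of these names, or an older name of the same gene, were taken. All 30 were found, on 58 probes, among 27670 genes and 41174 probes on the array. All 30 passed the filter on dim signal, as did 21108 of the 27670 genes, and 56 of the 58 probes passed it singly. Their order below follows their roles: 7 mevalonate and squalene enzymes, 6 sterol ring enzymes, 5 SREBP regulators, 5 genes of fatty acid synthesis, 4 desaturases and 3 elongases.

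Lung RNA came from male mice, 8 weeks old and of C57BL/6J background in both groups, that had breathed a saline aerosol for 30 min before the lung was taken. One group of 5 mice was wild-type and the other group of 5 was p53-null, and the labels do not name the allele. The series text calls the 5 samples of a group biological replicates, and each was hybridised to 1 single-colour Agilent array. All values are log2 signals relative to the 75th percentile of the array's own spots, so a level of 0 is the brightness of that percentile. The level of one probe is not comparable with that of another, and a difference is always p53-null minus wild-type, with its standard error (SE). A gene was called when its limma p, adjusted by the Benjamini-Hochberg method over all 21108 genes, was under 0.05. In whole tissue, fewer cells of a type and less RNA per cell cannot be told apart.

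Cholesterol is built from acetyl-CoA through mevalonate, squalene and a series of sterol ring intermediates, and fatty acids are built by a separate cytosolic route that starts with citrate cleavage. Both routes are transcribed under SREBPs, which are held in the endoplasmic reticulum by Scap and the Insig proteins when sterols are plentiful and released to the nucleus when they are scarce. In lung the best known use of new lipid is the surfactant made by alveolar type 2 cells, and fat cells also make fatty acids.

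The arrays were first checked against their labels. On the Trp53 probe with the highest number of spots, the wild-type arrays read -1.67, -1.64, -1.54, -1.43 and -2.22 and the p53-null arrays between -3.15 and -2.66, a difference of -1.28 ± 0.155 (SE, adjusted p over probes 0.00589), with no overlap. The other Trp53 probe, which has the higher mean and so stands for the gene, gave 0.31 ± 0.275 (adjusted p over probes 0.504). Its groups overlapped, and Trp53 as a gene was not called. The p53 target Cdkn1a lay between 1.85 and 3.02 in wild-type and between 1.11 and 1.48 in p53-null lung. All 8 alveolar type 2 markers were above background on all 10 arrays and none was called. Between 71.4% and 84.0% of spots were above background per array.

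Some arrays stand apart. Wild-type array 5 lay nearer to the p53-null mean than to the mean of the other 4 wild-type arrays for 66.5% of all genes and for 20 of the 30 genes of the set (66.7%). Without it, 31.4% of all genes were called instead of 7.49%. Skeletal muscle markers were high on wild-type array 2 and on arrays 4 and 5 of the p53-null group, and squamous epithelial markers on the first and last of these. Without these 3 arrays only 10 genes were called in the whole table and none of the set, where limma gave 4 of the 30 (13.3%) an unadjusted p under 0.05, against 16.5% of all genes. On some arrays the deviation from the mean went with the GC content of the probes. The correlation across probes was -0.31, 0.0034, -0.23, -0.32 and 0.35 on wild-type arrays 1 to 5, and 0.0043 to 0.20 in the p53-null group. Markers of blood and connective tissue cells were also called. Called higher in p53-null lung, as 4.6% of all genes were, were 7 of 7 neutrophil markers, 5 of 6 B cell markers and 3 of 6 T and NK cell markers (Cd3g, Cd8a and Thy1). Called lower, as 2.89% of all genes were, were 4 of 6 fibroblast markers (Col1a2, Col3a1, Pdgfra and Npnt). Also called lower were 1 of 5 endothelial markers (Plvap) and 1 of 6 alveolar macrophage markers (Marco). The mean deviation of the neutrophil markers ran from -1.41 to -0.40 on wild-type and from 0.48 to 1.40 on p53-null arrays, and that of the fibroblast markers from 0.18 to 0.40 and from -0.44 to -0.18. The part of these cells in the differences below was not tested. Values without wild-type array 5 are given beside the main ones. That array was singled out by its position in these same data, so the values without it are no independent support for a difference. Without it the correlations with probe GC were -0.32 to 0.0034 on wild-type and 0.0043 to 0.20 on p53-null arrays. Genotype and GC trend then run together, and no fit without that array removed the trend.

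Of the 30 genes, 2 were called (6.67%), against 7.49% of all genes tested: Mvk was higher and Nsdhl was lower in p53-null lung, as were 4.6% and 2.89% of all genes. The share in the set is close to the background share. The median difference of the 30 was -0.14, beside 0.050 over all genes tested. Of the 30 values, 10 were above and 20 below 0, beside 11878 above and 9230 below over all genes tested. At an unadjusted p under 0.05 there were 6 of 30 (against 27.6% of all genes), 1 of them higher (15.2% of all genes) and 5 lower (12.4% of all genes). No gene of the set differed by 2-fold, as 2.5% of all genes did. The groups did not overlap for 2 of the 30, Mvk and Me1, where 9.33% of all genes had no overlap, 5.45% with p53-null higher, as for Mvk, and 3.88% with it lower, as for Me1. Without wild-type array 5, 11 of the 30 were called (36.7%, against 31.4% of all genes): Mvk, Mvd, Fdft1 and Srebf1 were higher (17.1% of all genes) and Hmgcs1, Idi1, Insig2, Me1, Nsdhl, Scap and Srebf2 were lower (14.3%). The same 11 genes had no overlap between the groups once that array was left out, as had 29.5% of all genes. In 10 of these 11 wild-type array 5 lay nearer to the p53-null mean, as it did for 77.2% of all genes called without it. Among the lower genes, probe GC was 35.0% to 36.7% for Hmgcs1, Idi1, Insig2, Me1 and Nsdhl, 45.0% for Srebf2 and 53.3% for Scap. Among the higher it was 41.7% for Fdft1, 48.3% for Mvk and 55.0% for Mvd and Srebf1. The part of the GC trend in the calls without that array was not tested.

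**Figure D1:**
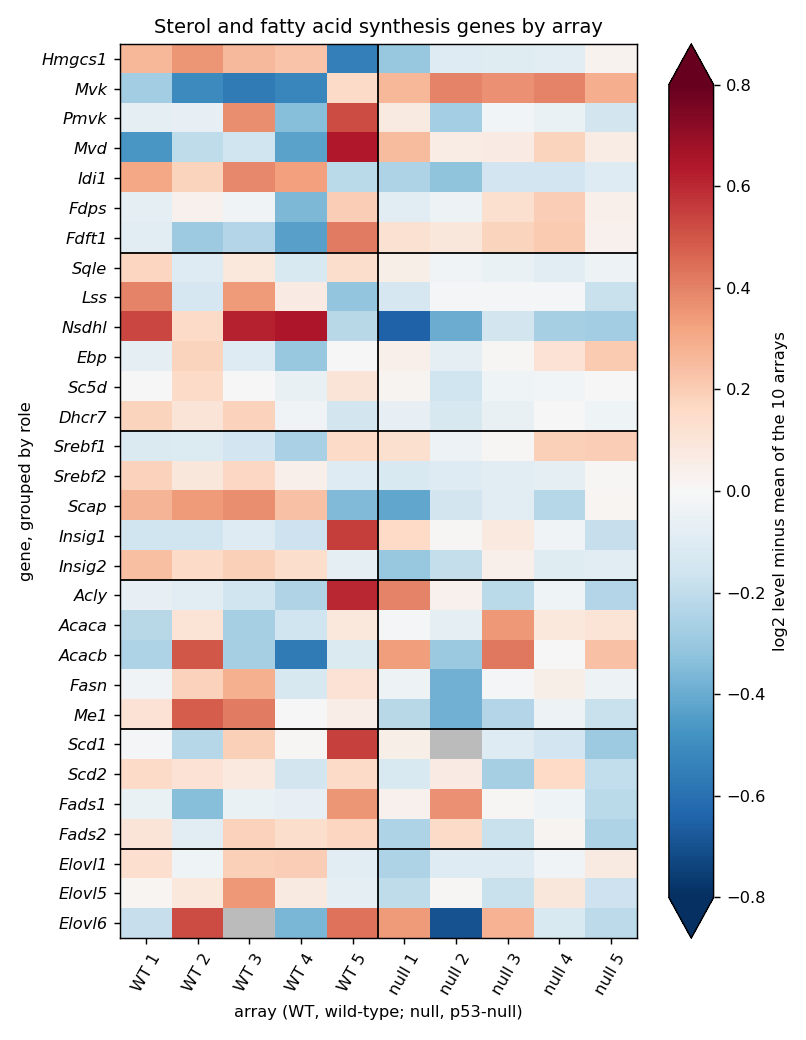
Level of each of the 30 genes on each array as log2 minus that gene's mean over the 10 arrays (colour, clipped at 0.8), with genes in rows by role, wild-type arrays left of the vertical line and p53-null arrays right of it, and grey where the spot was excluded as an outlier. Wild-type array 5 differs in colour from the other wild-type arrays for genes such as Mvk, Mvd, Hmgcs1, Scap and Insig1.

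**Figure D2:**
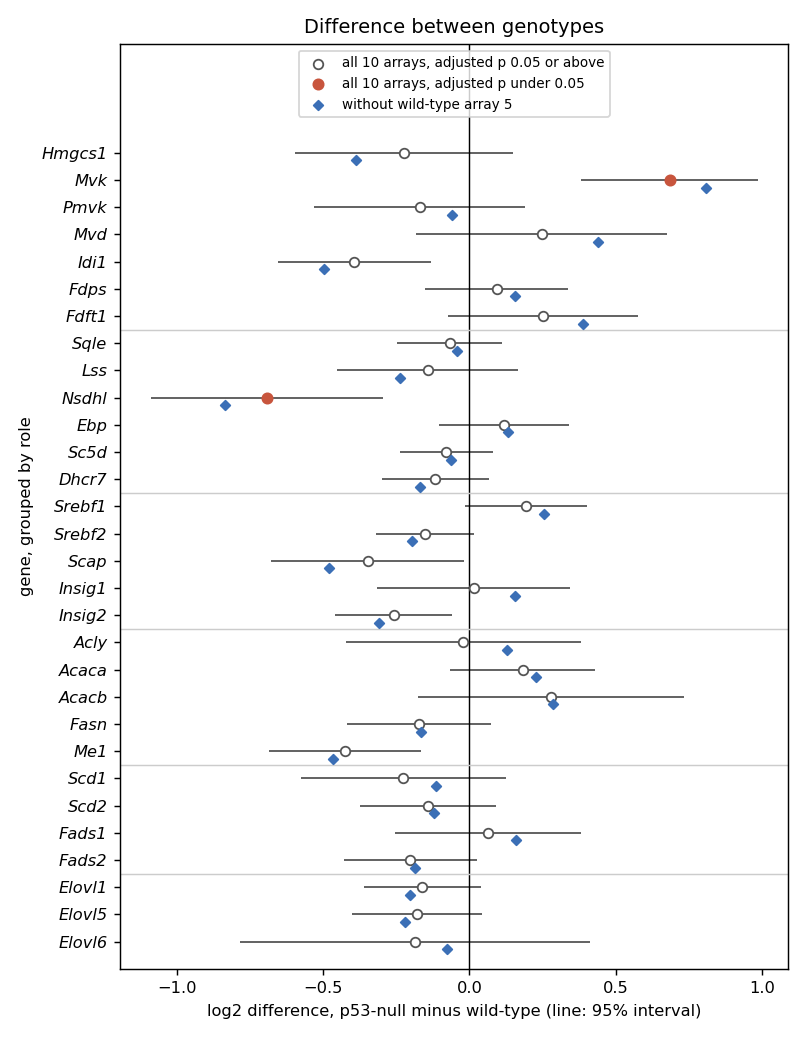
Difference between genotypes for each gene (x axis, log2, p53-null minus wild-type, circles with 95% intervals, filled where called) and the same value without wild-type array 5 (diamonds), by role on the y axis. Mvk (0.68) and Nsdhl (-0.69) lie farthest from 0 on either side.

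Mvk encodes mevalonate kinase, which adds the first phosphate to mevalonate. It has 2 probes. The sequences are shown because both gave the same direction, and both are printed whole as they stand in the files, on the plus strand of mm7 at chr5:113677760-113680707 and chr5:113674161-113674220. The first reaches over a longer stretch of the genome than its own 60 bases.
Mvk probe 1: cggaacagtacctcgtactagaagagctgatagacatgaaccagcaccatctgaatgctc
Mvk probe 2: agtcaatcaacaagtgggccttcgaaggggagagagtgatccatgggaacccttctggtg

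On the first probe the wild-type arrays 1 to 5 read -0.98, -1.22, -1.27, -1.23 and -0.55 and the p53-null arrays 1 to 5 read -0.45, -0.31, -0.34, -0.31 and -0.42. The groups did not overlap, and wild-type array 5 was the highest of its group. The means were -1.05 ± 0.300 (SD, n = 5) and -0.37 ± 0.0627 (SD, n = 5), a difference of 0.68 ± 0.135 (SE), or 1.61-fold, with an adjusted p of 0.0244. On the second probe the wild-type arrays lay between -1.89 and -1.17 and the p53-null arrays between -1.201 and -0.99, overlapping through wild-type array 5 only, with a difference of 0.50 ± 0.129 and an adjusted p over all 31587 probes tested of 0.0459. Both probes passed in a table where 7.11% of probes did. Without wild-type array 5 the difference was 0.81 with an adjusted p of 0.000515. When each array was left out in turn the call held without wild-type array 1 or 5 and missed for the other 8, with adjusted p between 0.0542 and 0.0674. The slides carry numbers of a lower and a higher range, the higher holding p53-null array 2 with wild-type arrays 3 and 4. With this range as a block the difference was 0.65 (adjusted p 0.0439), among the lower slides 0.54 (adjusted p 0.293) and among the higher 0.94 (adjusted p 0.404). Only 1 slide held both genotypes, so with the slide itself as a block the value is p53-null array 2 minus wild-type array 4, 0.92, which is 1 array per group. The higher range has 1 p53-null array. With scan day as a block, which equals leaving out wild-type array 3, alone on the second day, the difference was 0.63 (adjusted p 0.0655), and without the 3 arrays with muscle markers 0.64 (adjusted p 0.219). With each array's GC trend removed it was 0.62 with an adjusted p of 0.0168.

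Mmab, a cobalamin enzyme gene placed beside Mvk on the chromosome, gave differences of 0.15 and -0.21 on its 2 probes, and neither was called (adjusted p 0.323 and 0.318).

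The other enzymes up to squalene were not called. Idi1, the isomerase that makes the second isoprene building block, read 2.62, 2.49, 2.69, 2.63 and 2.09 in wild-type and 2.06, 1.98, 2.16, 2.15 and 2.20 in p53-null lung. Only wild-type array 5 lay among the p53-null arrays. The difference was -0.39 ± 0.118 (adjusted p 0.0691), and -0.50 without that array (adjusted p 0.0017). The second Idi1 probe gave -0.33 ± 0.105. Both Idi1 probes are placed by the files on chromosome 2, and these positions are the files' own. Hmgcs1, which joins acetyl groups ahead of mevalonate, lay between 2.52 and 3.43 in wild-type and between 2.77 and 3.10 in p53-null lung. Its difference was -0.22 ± 0.167 (adjusted p 0.42) with all arrays and -0.39 (adjusted p 0.0058) without wild-type array 5, which was the lowest of its group at 2.52. Mvd, Fdft1 and Fdps were above 0 and Pmvk below, at 0.25, 0.25, 0.094 and -0.17, with adjusted p between 0.29 and 0.62. In the 7 genes the signs differed, 4 above 0 and 3 below, with a median of 0.094.

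Nsdhl encodes a dehydrogenase that removes methyl groups from the sterol ring. It has 4 probes. They are shown because their differences were not alike. All are on the plus strand of mm7. The third, printed whole, is the only one with a reading frame open from end to end. The others have a stop in all 3 forward frames, and their opening 30 bases are given.
Nsdhl probe 1, chrX:68344546-68344605: ttatctggggtcttaaaaattgaagcaaaa
Nsdhl probe 2, chrX:68344352-68344414: cttgctggttagatggtagctacctgacac
Nsdhl probe 3, chrX:68341842-68343023: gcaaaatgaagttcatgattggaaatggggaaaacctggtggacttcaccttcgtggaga
Nsdhl probe 4, chrX:68327722-68327781: cccaaataaatattgtcagaatggctcggg

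On probe 1, which stands for the gene, the wild-type arrays read -0.29, -0.67, -0.20, -0.17 and -1.04 and the p53-null arrays -1.47, -1.22, -0.97, -1.09 and -1.10. Wild-type array 5 lay within the p53-null values, and the other 4 wild-type arrays lay above all of them. The means were -0.47 ± 0.374 (SD, n = 5) and -1.17 ± 0.191 (SD, n = 5), a difference of -0.69 ± 0.178 (SE), so wild-type was 1.62-fold higher (adjusted p 0.0468). On probe 2 the difference was -0.52 ± 0.131 (adjusted p over all probes 0.0438). The groups did not overlap there, narrowly, with a lowest wild-type value of -1.221 and a highest p53-null value of -1.234. On probe 3 it was -0.18 ± 0.114 (adjusted p 0.346) and on probe 4 -0.17 ± 0.147 (adjusted p 0.494), and both overlapped. The 2 called probes lie nearest the 3′ side of the gene on mm7. Whether the genotype difference varies between probes was not tested.

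Without wild-type array 5 the Nsdhl difference was -0.83 (adjusted p 0.0027). With any 1 of the other 9 arrays left out, adjusted p lay between 0.0742 and 0.121 and the difference kept its direction. With slide range as a block it was -0.64 (adjusted p 0.0767), among the lower slides -0.49 (adjusted p 0.413) and among the higher -1.03 (adjusted p 0.404). On the 1 slide with both genotypes, 1 array of each, it was -1.04. It was -0.62 with scan day as a block (adjusted p 0.121), -0.79 without the 3 arrays with muscle markers (adjusted p 0.233) and -0.61 with the GC trend of each array removed (adjusted p 0.027). Counting the scan day block and the fit without wild-type array 3 once, the call missed in 19 of 26 alternatives, and that of Mvk in 13, the slide block with 1 array per group among them. With the mean of all 4 probes it was -0.39 (adjusted p 0.0884). Cetn2, a centrin gene placed beside Nsdhl, gave -0.058 and 0.28 on its 2 probes (adjusted p 0.848 and 0.0831), so neither was called.

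**Figure D3:**
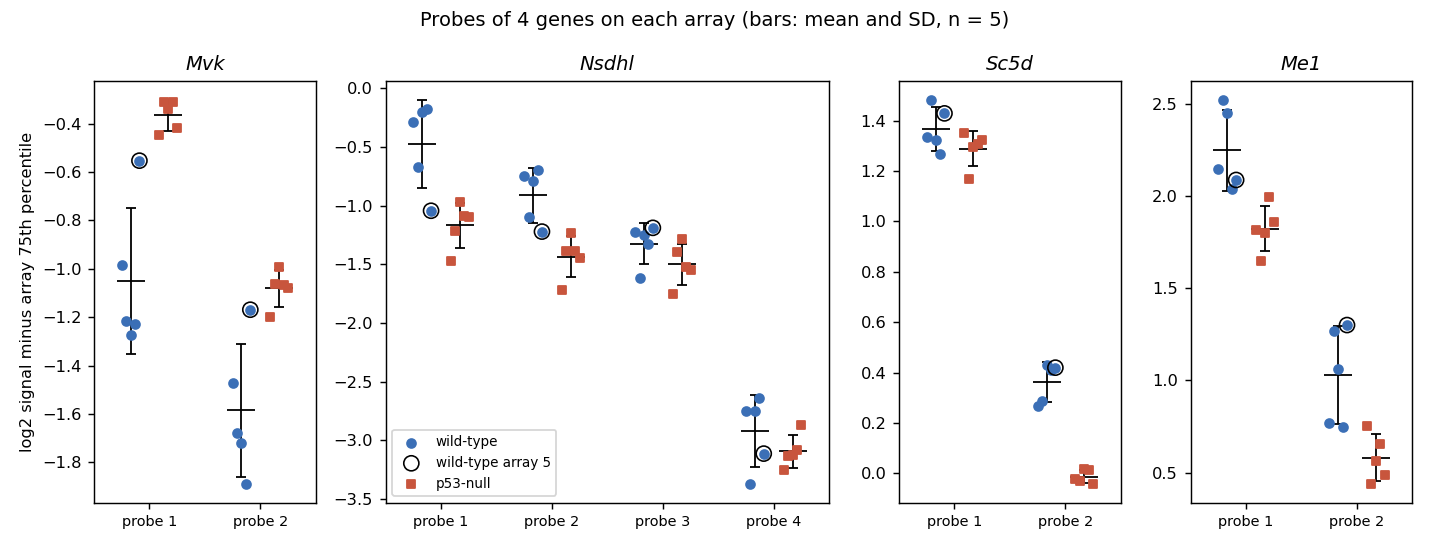
Signal (y axis, log2 minus the array's 75th percentile) of each probe of Mvk, Nsdhl, Sc5d and Me1 on each array, with wild-type as circles, p53-null as squares, wild-type array 5 ringed, and bars for the mean and SD of 5 arrays. Probe 1 stands for the gene in all 4 panels. Probe 1 of Mvk, probe 2 of Nsdhl and probe 1 of Me1 separate the groups, and probe 2 of Sc5d separates them while its probe 1 does not.

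Sc5d, which sets a double bond in the sterol ring, also gave unlike probes. On probe 1 the difference was -0.08 ± 0.074 (adjusted p over probes 0.533). On probe 2 the wild-type arrays read 0.27, 0.29, 0.43, 0.41 and 0.42 and the p53-null arrays -0.02, -0.03, 0.02, 0.01 and -0.04. No value overlapped, wild-type array 5 included, and the difference was -0.38 ± 0.068 (adjusted p over probes 0.0195). Both are on the minus strand of mm7, and their opening 30 bases are printed to tell them apart.
Sc5d probe 1, chr9:42189144-42189203: ggctgatgtaataagattgtacttcctata
Sc5d probe 2, chr9:42186374-42186433: ctcgtcttctgacccggcagtacaattctg

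Dhcr7, which makes cholesterol from its immediate precursor, read 1.37, 1.30, 1.38, 1.17 and 1.05 in wild-type and 1.13, 1.07, 1.13, 1.20 and 1.16 in p53-null lung. The groups overlapped and the difference was -0.12 ± 0.082 (adjusted p 0.39). Sqle, Lss and Ebp, an epoxidase, a cyclase and an isomerase of the same route, gave -0.067, -0.14 and 0.12 with adjusted p between 0.48 and 0.64. Of the 6 sterol ring enzymes, 5 were below 0 and 1 above.

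Among the SREBP regulators none was called. Insig2, which retains the SREBP complex in the endoplasmic reticulum, read 2.16, 2.07, 2.11, 2.06 and 1.85 in wild-type and 1.62, 1.73, 1.96, 1.82 and 1.83 in p53-null lung. Only wild-type array 5 lay among the p53-null arrays. The difference was -0.26 ± 0.0896 (adjusted p 0.0999), and -0.31 without wild-type array 5 (adjusted p 0.0168). The second Insig2 probe that was tested gave -0.097 ± 0.095 (adjusted p over probes 0.553), and its groups overlapped. Scap, the escort of SREBPs, read 4.21, 4.28, 4.31, 4.17 and 3.58 in wild-type and 3.52, 3.79, 3.84, 3.71 and 3.95 in p53-null lung. Wild-type array 5 was again alone in overlapping, and the difference was -0.35 ± 0.148 (adjusted p 0.16), or -0.48 without that array (adjusted p 0.0052).

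Srebf2, the isoform that mainly drives sterol genes, gave -0.15 (SE 0.0750, adjusted p 0.22), and Srebf1, the isoform that mainly drives fatty acid genes, gave 0.19 (SE 0.0933, adjusted p 0.21). Without wild-type array 5 both were called, at -0.20 and 0.26. Insig1, the other Insig gene of the set, was at 0.015 ± 0.148, and the sign of its difference turned under 7 of the alternatives beside arrays left out one at a time.

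No gene of fatty acid synthesis was called. Me1, the malic enzyme that supplies NADPH, read 2.15, 2.52, 2.45, 2.04 and 2.09 in wild-type and 1.81, 1.65, 1.80, 1.99 and 1.86 in p53-null lung. The 5 p53-null arrays all lay below the 5 wild-type arrays. The difference was -0.43 ± 0.116, so wild-type was 1.34-fold higher, with an adjusted p of 0.0535 that missed the threshold. Without wild-type array 5 it was -0.47 (adjusted p 0.0174). The second Me1 probe gave -0.45 ± 0.131 and overlapped through p53-null array 1 alone, at 0.755 against a lowest wild-type value of 0.747. Acaca, the cytosolic acetyl-CoA carboxylase, read -0.55, -0.22, -0.59, -0.49 and -0.24 in wild-type and -0.34, -0.41, 0.017, -0.24 and -0.22 in p53-null lung, overlapping, with a difference of 0.18 ± 0.111 (adjusted p 0.32).

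Acly, Acacb and Fasn, the citrate lyase, the mitochondrial carboxylase and the synthase itself, gave -0.020, 0.28 and -0.17 with adjusted p between 0.34 and 0.96. Acacb ran from 0.20 to 1.26 in wild-type and from 0.47 to 1.19 in p53-null lung. Fasn lay between 6.32 and 6.73 in wild-type and between 6.06 and 6.49 in p53-null lung.

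The adipocyte marker list varied between arrays in both groups. The mean deviation of its 9 markers ran from -0.76 to 0.45 on wild-type and from -0.42 to 0.67 on p53-null arrays. Of the 9 differences, 6 were above 0 and 3 below, and 1 gene was called, Lep. It was higher in p53-null lung, as were 4.6% of all genes. Lep was well above background on 1 of 5 wild-type and 4 of 5 p53-null arrays. It thus passed the filter mainly through the group where it was higher, so its call is no support for a difference. Adipoq lay between 0.87 and 2.67 in wild-type and between 1.24 and 2.76 in p53-null lung. Acacb was highest on wild-type array 2 and on arrays 3 and 1 of the p53-null group, the 3 arrays with the highest adipocyte score. The same 3 and wild-type array 5 were the 4 highest for Elovl6. Acly and Fasn were not ordered in this way. Acly was highest on wild-type array 5 (1.30) and read 0.48 on p53-null array 3, which had the highest score. Fasn was highest on wild-type array 3 (6.73), where the score was -0.47. The part of fat tissue in the values of these genes was not tested.

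**Figure D4:**
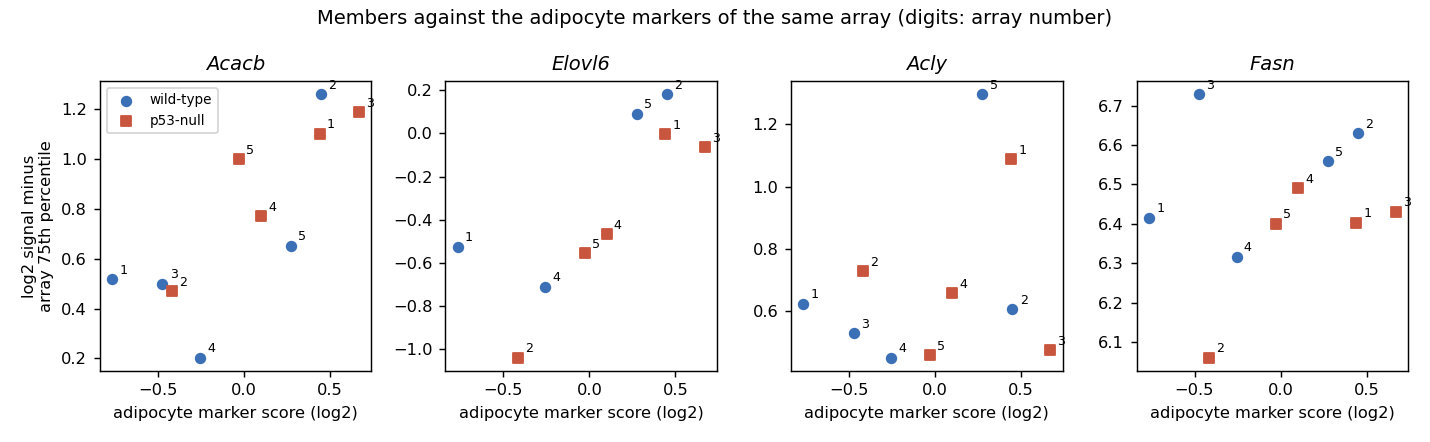
Signal of Acacb, Elovl6, Acly and Fasn on each array (y axis, log2 minus the array's 75th percentile) against the mean deviation of 9 adipocyte markers on that array (x axis, log2), with wild-type as circles, p53-null as squares and the array number beside each point. Arrays of both groups are spread along the x axis, from -0.76 to 0.67.

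None of the 4 desaturases, which place double bonds in fatty acids, was called. Scd1, a delta-9 desaturase, read 5.08, 4.86, 5.28, 5.10 and 5.64 in wild-type and 5.14, 4.99, 4.94 and 4.80 in p53-null lung, where array 2 had an outlying spot and the fit used 9 arrays. The groups overlapped, with a difference of -0.23 ± 0.154 (adjusted p 0.38). Fads2, the delta-6 desaturase, read -0.042, -0.24, 0.039, -0.0051 and 0.025 in wild-type and -0.39, 0.0058, -0.32, -0.12 and -0.39 in p53-null lung. The groups overlapped with p53-null arrays 1, 3 and 5 below every wild-type array, and the difference was -0.20 ± 0.101 (adjusted p 0.23). Scd2 and Fads1 gave -0.14 and 0.065 (adjusted p 0.41 and 0.81).

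The 3 elongases, which lengthen fatty acids, were all below 0 and none was called. Elovl1 read 5.21, 5.04, 5.26, 5.27 and 4.99 in wild-type and 4.83, 4.97, 4.97, 5.04 and 5.15 in p53-null lung. Elovl5 read 4.19, 4.26, 4.52, 4.24 and 4.10 in wild-type and 3.97, 4.18, 3.997, 4.27 and 4.01 in p53-null lung. Both pairs of groups overlapped, with differences of -0.16 ± 0.0895 and -0.18 ± 0.0993 and an adjusted p of 0.27 each. Elovl6 gave -0.19 ± 0.263 on 9 arrays, as wild-type array 3 had an outlying spot.

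A further 46 genes of sterol, fatty acid and lipid handling, not in the set, were listed beside it, and 45 were tested. One was called (2.22%, against 7.49% of all genes): Hsd17b7, a reductase of the same sterol ring steps as Nsdhl. It read -0.66, -0.86, -0.76, -0.84 and -1.17 in wild-type and -1.31, -1.52, -1.49, -1.21 and -1.39 in p53-null lung, with no overlap and a difference of -0.52 ± 0.107 (adjusted p 0.0266). It was called in 3 of the 10 fits with an array left out. Msmo1, which oxidises the sterol methyl group, also had no overlap at -0.18 ± 0.0720 (adjusted p 0.15). These were the only 2 of the 45 without overlap (4.44%, against 9.33% of all genes). Of the 45 differences, 21 were above 0 and 24 below. Without wild-type array 5, 13 of the 45 were called (28.9%, against 31.4% of all genes).

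Among the genes of the set, 24 have a promoter in the RefSeq table of GRCm38.p6, 250 bases before to 50 after each gene's start. They were searched for the sterol response element TCACNCCAC and for CCAAT and CACGTG on both strands. TCACNCCAC was found in 1 of the 24, Hmgcs1 (4.17%, against 1.44% of 27025 genes), CCAAT in 20 of 24 (83.3%, against 41.1%) and CACGTG in 5 of 24 (20.8%, against 8.09%). A longer form of the sterol response element, searched by the same rule, was in 0 of 24 and in 0.0999% of genes. The 250 bases before the start of the 2 called genes and of Hmgcs1 are printed for this, all 3 on the plus strand, with matches in capitals.
Mvk, chr5:114444019-114444268: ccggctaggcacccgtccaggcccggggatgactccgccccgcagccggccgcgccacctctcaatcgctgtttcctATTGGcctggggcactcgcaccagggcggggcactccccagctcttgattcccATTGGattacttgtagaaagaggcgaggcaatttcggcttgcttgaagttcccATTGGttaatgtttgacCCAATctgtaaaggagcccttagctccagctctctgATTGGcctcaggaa
Nsdhl, chrX:72918271-72918520: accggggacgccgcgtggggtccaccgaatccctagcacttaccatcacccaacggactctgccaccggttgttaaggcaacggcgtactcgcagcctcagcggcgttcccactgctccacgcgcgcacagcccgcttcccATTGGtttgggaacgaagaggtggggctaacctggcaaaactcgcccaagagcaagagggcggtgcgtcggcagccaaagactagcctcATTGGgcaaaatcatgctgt
Hmgcs1, chr13:119690101-119690350: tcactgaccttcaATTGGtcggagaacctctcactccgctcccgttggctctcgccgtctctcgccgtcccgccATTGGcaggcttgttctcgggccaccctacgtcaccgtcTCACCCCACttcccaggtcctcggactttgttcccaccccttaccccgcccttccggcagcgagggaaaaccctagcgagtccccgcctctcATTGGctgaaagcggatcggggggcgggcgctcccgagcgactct
The Mvk stretch holds CCAAT 5 times over both strands, once reading forward, where it stands 50 bases before the start. A match is a description of letters in these windows only.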

How the data were processed

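Cy3-labelled lung RNA was hybridised to single-colour arrays, per the labels. The scans were read by Agilent Feature Extraction 9.5, named in the submitters' processing notes. The deposited intensity is the authors' background-subtracted linear signal, not scaled between arrays, per the file headers, and the series' value table holds the same numbers. Log2 intensities were scaled to each array's 75th percentile, outlier-flagged spots were dropped and spots of a probe averaged. A gene is its probe with the highest mean, tested when 5 or more of the 10 arrays had it well above background. Probes were named by accession (22951), symbol (6659) or synonym (3109) through a RefSeq table of GRCm38.p6, and 8455 kept the file's name; probe positions are mm7 from the files. Groups were compared with limma 3.58.1 in R 4.3.3, Benjamini-Hochberg at 0.05, tested on simulated data. There 38.8% of 1.5-fold, 70.1% of 2-fold and 87.9% of 4-fold changes were called, with noise drawn independently for each gene and array. Only 67, 67 and 66 of 20606 genes were changed there, while 7.49% of genes were called in the data. The adjusted threshold depends on the share changed, so these percentages need not hold for the data. A gene that was not called is not shown to be unchanged. The number of arrays limits the precision. The limma p-values set each difference against the spread of these samples within their groups, with variance information shared over genes.

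The genes of the set and the other lists were chosen with earlier results of these data known. Array values were given for called genes and for the 2 with the smallest p per role; the further list names its called gene, and marker lists are given as counts, with the called markers named where fewer than 5. Genes outside this rule were chosen after their values were seen, namely Mmab, Cetn2, Msmo1 and the second probe of Sc5d. The ranges or single array values of Hmgcs1, Acacb, Fasn, Acly, Elovl6 and Adipoq are also outside it. Some genes of the further and marker lists are counted but not reported singly here. Other settings tried were normexp background, quantile and median scaling, 2 filters, the mean of probes, blocks for slide, slide range, scan day and replicate number, each slide range alone, another variance model, array weights, 2 stricter thresholds and leaving out each array. GC trend removal and leaving out the 3 arrays with muscle markers (wild-type 2, p53-null 4 and 5) were chosen after seeing the data.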

Additional observations from a re-analysis of the deposited data

Results flagged for a closer look

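Within a group of 5 arrays, 7 of the 76 groups examined (30 genes, 6 role means and 2 fat marker means, in 2 genotypes) had 1 array standing far from the rest, and chance alone gives about 1 in 20. In 5 of the 7 it was wild-type array 5: Hmgcs1 read 2.52 there against a nearest 3.297, Mvd 0.56 against -0.24, Scap 3.58 against 4.17, Insig1 -1.30 against -1.96 and Acly 1.30 against 0.63. Fasn read 6.06 on p53-null array 2 against a nearest 6.40, and Scd2 read 4.80 on wild-type array 4 against a nearest 5.02.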

How the results depend on the processing

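The numbers of calls moved with the processing, and no cause was tested unless given. Over all genes (1582) the number was 56 at an adjusted p of 0.01, 231 with 2-fold added, 583 under median scaling, 538 with no filter, 0 with the slide as a fixed block (p53-null array 2 against wild-type array 4 alone, the one slide with both genotypes), 697 with slide range as a block, 16 and 0 among the lower and higher slides alone, 322 with scan day as a block (the same fit as without wild-type array 3), 26 with the replicate block, 6527 with array weights and 10 without the 3 arrays with muscle markers; leaving out 1 array gave 192 to 6618. For the genes of the set (2) these counts were 0, 0, 1, 1, 0, 1, 0, 0, 0, 0, 11 and 0, with 4 under the trend and robust variance model, and leaving out 1 array gave 0 to 11. For the further genes (1) they were 0, 0, 0, 0, 0, 1, 0, 0, 0, 0, 12 and 0, with 2 from the mean of probes, and 0 to 13 with 1 array left out. Where limma called none, its unadjusted p was under 0.05 for 1134 genes with the slide block and 2597 among the higher slides, for 2 to 7 genes of the set and for 1 to 7 further genes. Equal replicate numbers did not mark shared deviation (correlations -0.22 to 0.0011), so the block is no paired analysis. Of 26 distinct alternatives, 25 kept the set's median below 0 (-0.21 to 0.011), while the median over all genes ran from -0.020 to 0.11. The Hmgcs1 difference came out at 0.12 with the mean of probes, because a dim probe has no value on p53-null array 1 and the mean there is over fewer probes; its 3 probes singly gave -0.22, 0.044 and -0.063, so this is no change of sign in the gene. Differences changed sign on the single pair of arrays of the slide block for Pmvk (0.066), Sqle (0.090), Scd2 (0.21), Fads2 (0.011) and Acly (0.28); for Acly also with the slide as a random block (0.0048), in the higher range (0.24), with weights (0.069) and without the 3 arrays (0.038); for Insig1 under quantile normalisation (-0.035), median scaling (-0.056), mean of probes (-0.026), range block (-0.011), lower range (-0.071), scan day (-0.0096) and GC trend removal (-0.011); for Scd2 in the higher range (0.099), Fads1 under median scaling (-0.0055) and in the lower range (-0.037), and Elovl6 without the 3 arrays (0.012). With 1 array left out, Acly ran from -0.12 to 0.13, Fads1 from -0.019 to 0.16 and Insig1 from -0.025 to 0.16. The value table equalled the scanner signal, so that alternative was not run. Array number limits all of these.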
